A study of Homo sapiens with 32 samples.

Results

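The BCL2 family is a group of related proteins that decide whether a cell releases cytochrome c from its mitochondria and dies by apoptosis. Its members were chosen by gene symbol, from a list of 10 genes: BCL2, BCL2L1, MCL1, BAX, BAK1, BCL2L11, BBC3, PMAIP1, BID and BIK. All 10 had a feature on the array, 1 feature each, among the 14884 genes that could be named.

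Guardian members (BCL2, the BCL-XL protein encoded by BCL2L1, and MCL1) bind and hold the other members in check. Executor members (BAX and BAK1) assemble into pores in the outer mitochondrial membrane. BH3-only members (BIM from BCL2L11, PUMA from BBC3, NOXA from PMAIP1, BID and BIK) are sensors of stress that bind guardians, and some of them also activate the executors directly. In chronic myeloid leukemia, signalling from the BCR fusion kinase keeps BIM low and helps to maintain BCL-XL and MCL1, and blocking that kinase with imatinib or nilotinib releases BIM and kills sensitive cells.

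The series holds 32 GeneChip expression arrays of K-562 cells, a line from the blast phase of chronic myeloid leukemia. There were 4 groups of 8 arrays: treatment-naive cells, cells resistant to 0.5 µM imatinib (low imatinib below), cells resistant to 2 µM imatinib (high imatinib) and cells resistant to 0.1 µM nilotinib. Each group consisted of 2 sets of 4 technical arrays. The design text calls the sets of a resistance biological replicates, which are named lines 1 and 2 here, and the naive sets carry the letters S and K, whose meaning the labels leave unstated. All groups share the K-562 origin. Resistance had been reached by raising the drug concentration in steps. For every group the labels describe growth in drug-free medium, and drug exposure at harvest is not clear. The labels do not say whether a line is 1 clone. RNA came from whole cultures, so fewer cells with a transcript and less transcript per cell cannot be told apart.

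Values are summarised intensities that look like log2 values (from 1.24 upwards). Array medians lay between 5.85 and 6.11, and how the authors normalised the arrays is not stated. Levels below are set means on this scale with the SD over the 4 arrays of the set, which is technical spread. Differences between groups come from limma fitted to the 8 set means of all genes, with standard errors (±) and Benjamini-Hochberg adjusted p-values over 14884 genes, and a gene was called when its adjusted p was under 0.05. Levels of different genes are not compared, because each feature has its own response. Within a set, arrays correlated at r = 0.952 to 0.991. The leading pattern of variation among arrays of the same set (16.8% of the within-set variance) also separated the groups: its mean score was -20.8 in naive S and -25.1 in naive K, and between -2.13 and 21.2 in the 6 resistant lines. Fits were repeated with this pattern, called the technical pattern below, taken out. Those values stand beside some of the results they change, and changed counts of called members are given at the end. Because the scores of this pattern also separate naive from resistant sets, taking it out can remove real differences too. These fits therefore cannot say how much of a result is technical. Of 12 listed genes that mark K-562 cells, 5 were measured. GATA1, the erythroid master regulator, lay between 9.12 and 9.71 in every set. TAL1 (1.12 ± 0.19, adjusted p = 0.0380 in limma) and GFI1B (1.04 ± 0.14, adjusted p = 0.0335), transcription factors of the same lineage, rose in the resistant lines. With the pattern taken out, neither passed (adjusted p = 0.160 for TAL1 and 0.173 for GFI1B). The other measured markers were not called: KLF1 (0.65 ± 0.28, adjusted p = 0.174) was 7.94 and 8.16 in the naive sets, 7.54 in high imatinib line 1 and 8.71 to 9.08 in the other 5 lines, and LYL1 differed by -0.13 ± 0.10 (adjusted p = 0.426). Of 6 T and B cell markers 1 was measured, PAX5 (5.86 to 6.54 over the sets), and of 6 fibroblast and epithelial markers 2 were, EPCAM (5.86 to 9.26) and KRT5 (5.33 to 5.91). No detection calls were used, so absence of these markers cannot be stated.

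Promoter sequences of 2 members are shown here because these genes carry the main call (BAX) and the widest differences among BH3-only members (BCL2L11), and because each holds a motif that the other lacks. They are the 250 bases before the gene's start, 5′ to 3′, from RefSeq on GRCh38.p14. BAX is at chr19:48954625-48954874 and BCL2L11 at chr2:111120664-111120913, both on the plus strand. Capitals mark CACGTG, the E-box read by MYC, MAX and related factors, and GTAAACA, the forkhead motif read by FOXO factors.
BAX: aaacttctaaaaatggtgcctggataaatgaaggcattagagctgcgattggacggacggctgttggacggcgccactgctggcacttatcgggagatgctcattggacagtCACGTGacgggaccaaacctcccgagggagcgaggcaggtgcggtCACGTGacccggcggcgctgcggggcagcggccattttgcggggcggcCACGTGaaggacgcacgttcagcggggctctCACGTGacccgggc
BCL2L11: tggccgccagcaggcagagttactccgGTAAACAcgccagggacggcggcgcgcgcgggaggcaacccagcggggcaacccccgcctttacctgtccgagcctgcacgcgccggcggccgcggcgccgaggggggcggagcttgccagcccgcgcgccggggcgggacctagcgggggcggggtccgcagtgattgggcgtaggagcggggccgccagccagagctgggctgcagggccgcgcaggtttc

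The BAX window held CACGTG 4 times, starting at -138, -93, -45 and -14 relative to the gene's start. Over 35116 promoter windows of the same length, 6.34% held CACGTG at least once, and 5 (0.0142%) held it 4 times or more. The BCL2L11 window held GTAAACA once, at -223, and 2.98% of the windows held it on either strand. The STAT motif TTCNNNGAA was searched as well: 6.57% of all windows held it, and no window of a member did. In total 13 windows of 8 members were available, and 1 window of BBC3 and 2 of 5 windows of BID also held CACGTG once. These 2 windows of BID overlap each other and share the match. MCL1 and BIK had no entry. A match describes the letters of the window only, and binding was not measured.

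The comparison of all 6 resistant lines with the naive sets asks what the resistances have in common. BAX rose in the resistant lines, by 0.65 ± 0.13 on the log2 scale (about 1.57-fold), and was the only member called. BCL2 was lower in 5 of 6 resistant lines and MCL1 was higher in 6 of 6, but neither passed the adjusted threshold. The other 7 members differed by less than 0.40 in either direction. In all, 1 of 10 members was called, against 3.72% of all genes (553 of 14884), and 2 of 10 had an unadjusted p under 0.05, against 29.8% of all genes. The median difference of the 10 members was 0.27, and that of all genes was -0.03. Outside the dimmest 40% of genes, where 8 of the members lie, the medians were closer: 0.33 for those members and 0.20 for all such genes. That filter used means over all arrays, most of them resistant, so genes low in the resistant lines fall out more easily. BCL2 (naive mean 7.20, resistant mean 5.79) is among the genes left out. Both filtered medians thus depend in part on the differences themselves.

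**Figure D1:**
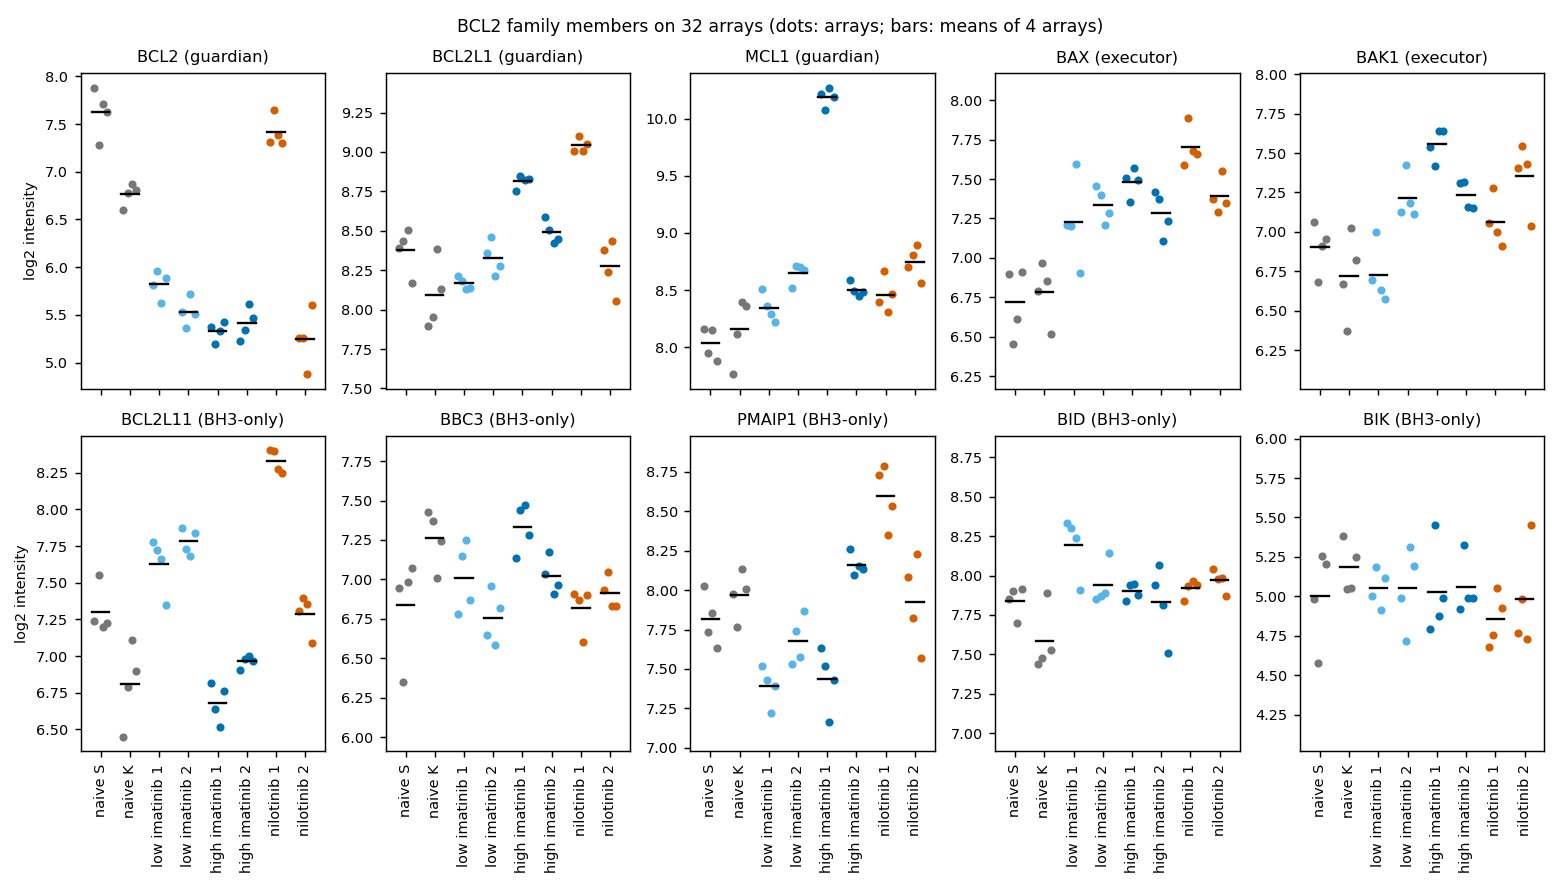
Log2 intensity (vertical axis, own range for each gene) of the 10 members on all 32 arrays, by set (horizontal axis). Dots are arrays and bars are means of the 4 arrays of a set; BCL2 is low in all resistant lines except nilotinib line 1, and MCL1 stands highest in high imatinib line 1 (10.19).

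BCL2, the founding guardian, had the widest range of set means among the members (2.37), and 2.02% of all genes had a wider one. Its level was 7.63 ± 0.25 in naive S and 6.77 ± 0.12 in naive K (SD, n = 4 arrays each, as for all levels below). It was 5.82 ± 0.14 and 5.53 ± 0.15 in low imatinib lines 1 and 2, and 5.33 ± 0.10 and 5.41 ± 0.17 in high imatinib lines 1 and 2. Nilotinib line 1 had 7.41 ± 0.16, between the naive sets, while nilotinib line 2 had 5.25 ± 0.30, the lowest of all. Thus 5 of 6 resistant lines, with 20 technical arrays, lay below all 8 naive arrays, and the line that did not was nilotinib line 1. At least 5 of 6 lines lay below both naive sets for 27.7% of all genes. The difference of all resistant lines from naive was -1.40 ± 0.52 (95% interval -2.64 to -0.17, adjusted p = 0.135 in limma). Without nilotinib line 1 the difference was -1.76, with only line 2 left for nilotinib. No fit that left out another set called BCL2.

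By resistance, BCL2 differed from naive by -1.52 ± 0.64 in low imatinib (adjusted p = 0.230 in limma), -1.83 ± 0.64 in high imatinib (adjusted p = 0.263) and -0.86 ± 0.64 in nilotinib (adjusted p = 0.358). The 4 imatinib lines spanned 5.33 to 5.82, so the lines of both doses were close to each other and the difference of high from low imatinib was -0.31 (95% interval -1.82 to 1.21). BCL2 belongs to the dimmest 40% of genes.

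BCL2L1, which encodes the guardian BCL-XL, was 8.38 ± 0.15 in naive S and 8.09 ± 0.22 in naive K. It was 8.17 ± 0.04 and 8.33 ± 0.11 in low imatinib lines 1 and 2, 8.81 ± 0.04 and 8.49 ± 0.07 in those of high imatinib, and 9.04 ± 0.04 and 8.28 ± 0.17 in those of nilotinib. The low imatinib lines lay within the naive range, both high imatinib lines lay above it, and of the nilotinib lines only line 1 did. The difference of all resistant lines from naive was 0.29 ± 0.22 (adjusted p = 0.383 in limma), and with quantile normalisation it was -0.09.

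MCL1, a short-lived guardian, had a range of 2.15, and 2.63% of genes had a wider one. It was 8.03 ± 0.14 in naive S and 8.16 ± 0.29 in naive K, 8.34 ± 0.12 and 8.65 ± 0.09 in low imatinib lines 1 and 2, and 8.46 ± 0.15 and 8.74 ± 0.15 in those of nilotinib. High imatinib line 1 had 10.19 ± 0.08, and high imatinib line 2 had 8.50 ± 0.06. All 6 lines were above both naive sets, which held for 17.0% of all genes, but 1 line stood far above the rest. Of the 24 resistant arrays, which are technical within a line, 19 were above all 8 naive arrays. The difference of all resistant lines was 0.72 ± 0.39 (adjusted p = 0.250 in limma). It was 0.44 without high imatinib line 1 (adjusted p = 0.0967) and 1.00 without high imatinib line 2 (adjusted p = 0.0245). With quantile normalisation it was 0.34, and with the technical pattern taken out 0.37.

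**Figure D2:**
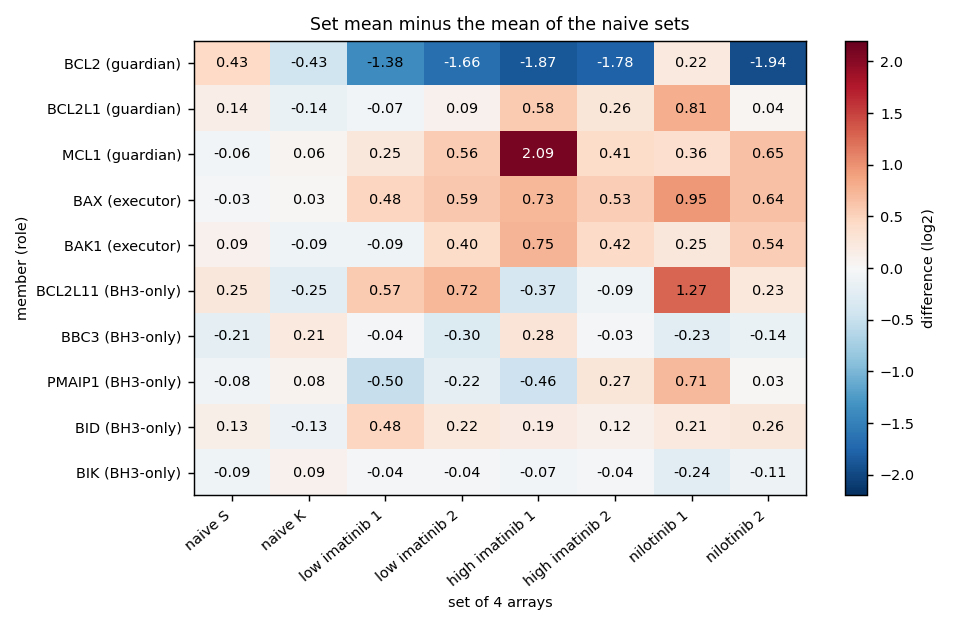
Mean of each set minus the mean of naive S and K (log2, colour and printed value) for the 10 members (rows, by role) and 8 sets (columns). Rows of BAX and MCL1 are above 0 in all 6 resistant lines, while the row of BCL2 is below -1.3 in 5 lines and 0.22 in nilotinib line 1.

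BAX, a pore-forming executor, was 6.72 ± 0.22 in naive S and 6.78 ± 0.19 in naive K. It was 7.23 ± 0.28 and 7.34 ± 0.11 in low imatinib lines 1 and 2, 7.48 ± 0.09 and 7.28 ± 0.14 in those of high imatinib, and 7.70 ± 0.13 and 7.39 ± 0.11 in those of nilotinib. The naive sets and the resistant lines did not overlap, and 23 of 24 resistant arrays lay above all 8 naive arrays. The 95% interval of the difference was 0.36 to 0.95, with an adjusted p of 0.0454 in limma. The call was close to the threshold: BAX was 0.52 higher with quantile normalisation (adjusted p = 0.0663) and 0.50 higher with the technical pattern taken out (adjusted p = 0.185). It also missed the threshold without naive S (0.62, adjusted p = 0.218), naive K (0.69, adjusted p = 0.290), low imatinib line 1 (0.67, adjusted p = 0.0903), low imatinib line 2 (0.64, adjusted p = 0.104) or nilotinib line 1 (0.60, adjusted p = 0.0658), with a difference that moved little each time.

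BAX differed from naive by 0.53 ± 0.15 in low imatinib (adjusted p = 0.131 in limma), 0.63 ± 0.15 in high imatinib (adjusted p = 0.157) and 0.80 ± 0.15 in nilotinib (adjusted p = 0.0574). These comparisons share the naive sets. BAX had a range of 0.98 over the sets, and 24.4% of genes had a wider one, so the rise was moderate in size and came with closely spaced lines.

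BAK1, the other executor, was 6.90 ± 0.16 in naive S and 6.72 ± 0.27 in naive K. It was 6.73 ± 0.19 and 7.21 ± 0.14 in low imatinib lines 1 and 2, 7.56 ± 0.11 and 7.23 ± 0.09 in those of high imatinib, and 7.06 ± 0.16 and 7.36 ± 0.22 in those of nilotinib. Low imatinib line 1 matched the naive sets and the other 5 lines were above them. The difference was 0.38 ± 0.18 (adjusted p = 0.194 in limma), and 0.12 with the technical pattern taken out. In high imatinib it was 0.58 ± 0.21 (95% interval 0.08 to 1.09, adjusted p = 0.277).

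BCL2L11, which encodes the BH3-only activator BIM, had a range of 1.65 over the sets, and 5.91% of genes had a wider one. It was 7.30 ± 0.17 in naive S and 6.81 ± 0.28 in naive K. It was 7.63 ± 0.19 and 7.78 ± 0.09 in low imatinib lines 1 and 2, 6.68 ± 0.13 and 6.96 ± 0.04 in those of high imatinib, and 8.33 ± 0.08 and 7.29 ± 0.14 in those of nilotinib. The doses of imatinib were on opposite sides: both low imatinib lines were above the naive sets, high imatinib line 1 was below them, and high imatinib line 2 was between them. High minus low imatinib was -0.88 ± 0.34 (95% interval -1.69 to -0.08), with an adjusted p of 0.934 in limma. Nilotinib minus high imatinib was 0.99 ± 0.34 (95% interval 0.18 to 1.79, adjusted p = 0.744), or 0.46 without nilotinib line 1 and 1.51 without nilotinib line 2. Both intervals are unadjusted, and neither difference passed over all genes. In the same fit, nilotinib differed from naive by 0.75 ± 0.34 (adjusted p = 0.176), low imatinib by 0.65 ± 0.34 (adjusted p = 0.306) and high imatinib by -0.23 ± 0.34 (adjusted p = 0.754). Over all resistant lines the difference was 0.39 ± 0.28 (adjusted p = 0.361), and 0.02 with the technical pattern taken out.

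PMAIP1, which encodes NOXA, a BH3-only protein that binds MCL1, was 7.81 ± 0.17 in naive S and 7.97 ± 0.15 in naive K. It was 7.39 ± 0.12 and 7.68 ± 0.16 in low imatinib lines 1 and 2, 7.44 ± 0.20 and 8.16 ± 0.07 in those of high imatinib, and 8.60 ± 0.20 and 7.93 ± 0.29 in those of nilotinib. Lines lay on both sides of the naive sets, 3 below and 2 above, and the difference of all resistant lines was -0.03 ± 0.25 (adjusted p = 0.948 in limma), or -0.38 with quantile normalisation. Nilotinib minus low imatinib was 0.73 ± 0.30 (95% interval 0.02 to 1.44, adjusted p = 0.721), or 0.39 without nilotinib line 1.

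BID, which links death receptors to mitochondria once caspases have cut it, stayed within 7.58 to 8.19 over the sets. Its lowest level was in naive K and its highest in low imatinib line 1, and 5 of 6 resistant lines were above both naive sets. The difference was 0.25 ± 0.12 (adjusted p = 0.220 in limma), and -0.09 with quantile normalisation. BBC3, which encodes PUMA, ranged from 6.75 in low imatinib line 2 to 7.33 in high imatinib line 1, with naive S at 6.84 and naive K at 7.26. Its difference was -0.08 ± 0.16 (adjusted p = 0.756), and the resistant lines lay on both sides of the naive sets. BIK, a BH3-only protein of the endoplasmic reticulum, ranged only from 4.85 to 5.18, and 93.7% of genes had a wider range. It belongs to the dimmest 40% of genes, and its difference was -0.09 ± 0.10 (adjusted p = 0.566), or 0.25 with the technical pattern taken out and 0.06 with quantile normalisation.

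**Figure D3:**
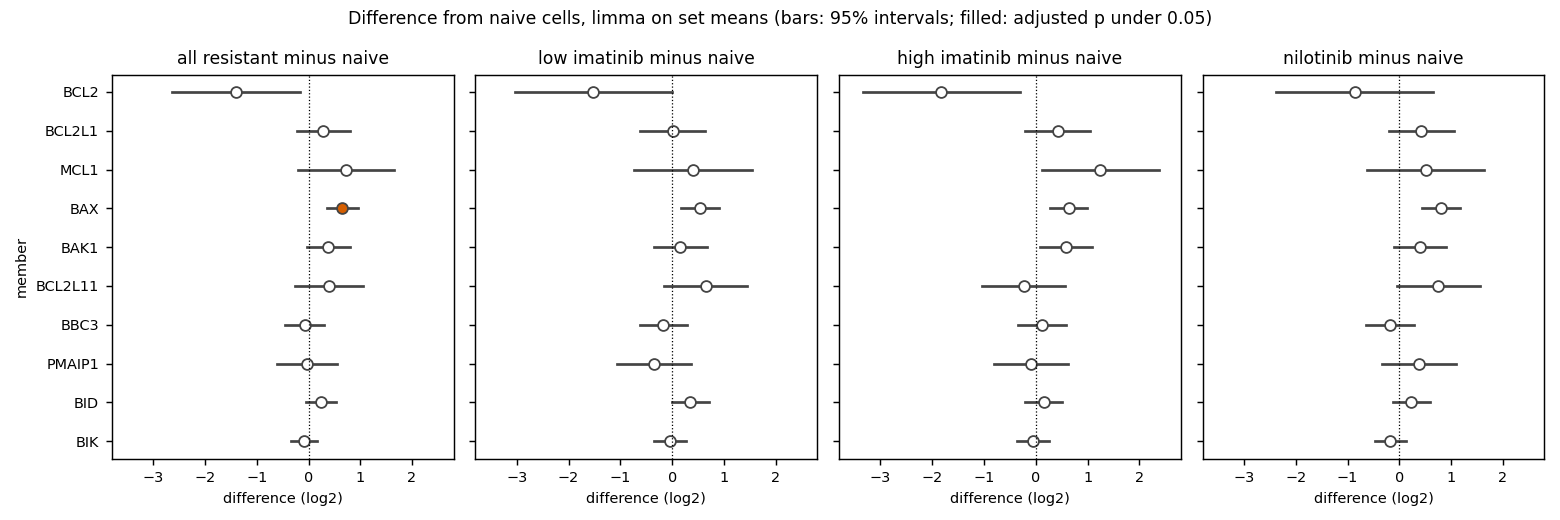
Difference from the naive sets (log2, horizontal axis) for the 10 members in the 4 comparisons, from limma on set means; bars are 95% intervals and a filled point has an adjusted p under 0.05. Only BAX in the comparison of all resistant lines (0.65) is filled, and the interval of BCL2 (-2.64 to -0.17) is the widest there.

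Each resistance was also set against naive cells by itself, and the resistances against each other. None of the 10 members was called in low imatinib or in high imatinib, where 0.0% of all genes were called in either comparison, nor in nilotinib, where 0.443% (66 genes) were. At an unadjusted p under 0.05 in limma, 2 members differed in low imatinib (BAX and BCL2), 4 in high imatinib (BAX, BAK1, BCL2 and MCL1) and 1 in nilotinib (BAX), against 3215, 2266 and 4755 of all genes. MCL1 in high imatinib differed by 1.25 ± 0.48 (adjusted p = 0.295), a value that was 0.41 without high imatinib line 1 and 2.09 without line 2. Each of these values rests on the 1 line left in the group. Between resistances, 0 members and 0.0% of all genes were called in each of the 3 comparisons, and 1 member had an unadjusted p under 0.05 in each: BCL2L11 in high against low imatinib and in nilotinib against high imatinib, and PMAIP1 in nilotinib against low imatinib. Of all genes 722, 943 and 1028 did so in the same order.

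The members were also counted by whether lines lay outside the naive range, as a description with no test. All 6 resistant lines were above both naive sets for 2 of 10 members, BAX and MCL1, and this held for 17.0% of all genes. All 6 were below for 0 members and 15.9% of genes. At least 5 of 6 lines were above for BAX, BAK1, MCL1 and BID (27.9% of genes) and below for BCL2 (27.7% of genes). For at least 5 lines the count above was thus 4 of 10 members and the count below 1 of 10. With only 10 members such shares are coarse, and their distance from those of all genes was not tested.

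Within single resistances, both low imatinib lines were above both naive sets for BAX, MCL1, BCL2L11 and BID (31.0% of genes) and below for BCL2 and PMAIP1 (31.0% of genes). Both high imatinib lines were above for BAX, BAK1, BCL2L1 and MCL1 (24.3% of genes) and below for BCL2 (25.9% of genes). Both nilotinib lines were above for BAX, BAK1, MCL1 and BID (32.7% of genes) and below for BIK (34.7% of genes). BAX and MCL1 were on the higher side in each resistance. BCL2 was on the lower side in all 4 imatinib lines and in nilotinib line 2, which had the lowest level of all, and nilotinib minus high imatinib was not called (0.96 ± 0.64, adjusted p = 0.750 in limma).

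Lines of the same resistance differed at several members. These comparisons used limma on the 32 arrays, so the error is technical spread only and the test speaks of these RNA sources, not of the resistance. In nilotinib, 4 of 10 members were called, against 27.6% of all genes, and all 4 were lower in line 2. BCL2 differed by -2.16 ± 0.13 in line 2 against line 1 (about 4.47-fold, adjusted p = 2.29e-15). BCL2L11 differed by -1.04 ± 0.11 (adjusted p = 5.08e-09), BCL2L1 by -0.76 ± 0.10 (adjusted p = 1.30e-07) and PMAIP1 by -0.67 ± 0.13 (adjusted p = 8.40e-05). Nilotinib line 1 thus had more transcript than line 2 of the guardians BCL2 and BCL2L1 and of the BH3-only members BCL2L11 and PMAIP1.

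In high imatinib, 4 of 10 members were called, against 33.0% of all genes. MCL1 differed by -1.68 ± 0.11 in line 2 against line 1 (about 3.21-fold, adjusted p = 2.95e-14), and PMAIP1 by 0.72 ± 0.13 in the other direction (adjusted p = 2.06e-05). BCL2L1 (-0.32 ± 0.10, adjusted p = 0.00910) and BAK1 (-0.32 ± 0.12, adjusted p = 0.0427) were lower in line 2. Both calls were lost in some fits that left out the same-numbered array of every set. BAK1 missed the threshold without array 1, 3 or 4 (adjusted p = 0.111, 0.206 and 0.180) and BCL2L1 without array 2 (adjusted p = 0.0614). The BAK1 difference lay between -0.40 and -0.27 in these fits. They use fewer arrays, so they cannot tell the effect of a single array from lost precision. In low imatinib, 1 of 10 members was called, BAK1 (0.49 ± 0.12 higher in line 2, adjusted p = 0.00484), against 18.7% of all genes.

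The naive sets differed from each other at 4 of 10 members, against 12.4% of all genes. BCL2 (-0.86 ± 0.13, adjusted p = 5.48e-05), BCL2L11 (-0.49 ± 0.11, adjusted p = 0.00487) and BCL2L1 (-0.28 ± 0.10, adjusted p = 0.04998, just under the threshold in limma) were lower in naive K, and BBC3 was higher (0.42 ± 0.13, adjusted p = 0.0312). Without array 1 or array 2 of every set, only BCL2 was called here. BAX, MCL1, BAK1, PMAIP1, BID and BIK were not called between the naive sets. BAX was not called within any group, and its largest difference between sets of a group was -0.31 ± 0.12 in nilotinib (adjusted p = 0.0549), smaller than its rise of 0.65 over naive.

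**Figure D4:**
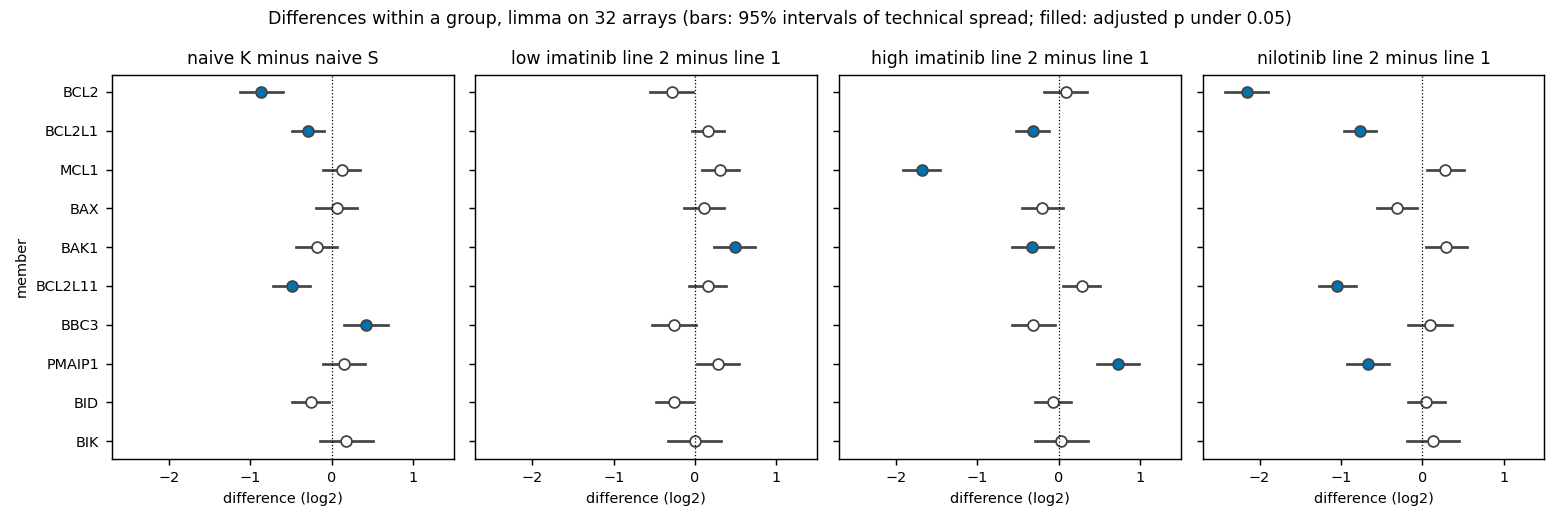
Difference between the sets of each group (log2, horizontal axis) for the 10 members, from limma on 32 arrays; bars are 95% intervals of technical spread and a filled point has an adjusted p under 0.05. The largest differences are BCL2 in nilotinib (-2.16) and MCL1 in high imatinib (-1.68).

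Genes with the profile most like those of the 3 widest-ranging members were listed by Pearson's r over the 8 set means, among genes with at least 50% of the member's range. These values are descriptions, and the points share sets and arrays. For BCL2 (2226 genes ranked) they were EPB41L3, a membrane skeleton adaptor (r = 0.98), PDE4DIP, a centrosome and Golgi protein (r = 0.96), and GMPPA, a subunit of the enzyme complex that makes GDP-mannose (r = 0.96). EPB41L3 was 8.69 and 7.92 in the naive sets, 8.93 in nilotinib line 1 and 5.76 to 6.85 in the other 5 lines, so it too was low in every resistant line but that one. For MCL1 (2924 genes) they were USP53 (r = 0.97), LPXN, a focal adhesion adaptor (r = 0.96), and DLX1, a homeobox transcription factor (r = 0.96). USP53 was 8.94 in high imatinib line 1 and 6.94 to 7.62 in the other 7 sets. For BCL2L11 (5167 genes) they were TCTN3, a protein of the ciliary transition zone (r = 0.94), JAK2, a cytokine receptor kinase (r = 0.93), and RTN4IP1, a mitochondrial protein (r = 0.92). JAK2 was 8.26 in nilotinib line 1, next highest in low imatinib lines 1 and 2, and 6.96 to 7.22 in the other 5 sets.

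The wider pathway was read through lists of genes that act beside the members. Of 13 other BCL2 relatives, 11 were measured and 0 were called against naive in any of the 4 comparisons, with a median difference of 0.05 over all resistant lines (all genes: -0.03). At an unadjusted p under 0.05 in limma, 2 of the 11 differed over all resistant lines, against 29.8% of all genes. They went in opposite directions: BMF, a BH3-only gene named here after its values were seen (-0.43 ± 0.16, adjusted p = 0.135), and the mitophagy receptor BNIP3L (0.99 ± 0.39, adjusted p = 0.149). BNIP3, a relative of BNIP3L, had the second largest difference (0.74 ± 0.33, adjusted p = 0.182) and an unadjusted p above 0.05. BNIP3L was 9.38 and 9.65 in the naive sets, 9.54 in nilotinib line 2 and 10.25 to 11.16 in the other 5 lines.

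Of 18 genes listed for channels of the outer membrane (VDAC1, VDAC2 and VDAC3) or for steps after it is breached, 8 were measured. Of these, 0 were called in any comparison with naive, and 8 of 8 had a difference above 0 over all resistant lines, as did 47.6% of all genes. The median was 0.32, against -0.03 for all genes and 0.20 for genes outside the dimmest 40%. As stated above, that filter itself favours genes that are higher in the resistant lines. At an unadjusted p under 0.05 in limma, 2 of the 8 differed, against 29.8% of all genes. These were VDAC1, a channel of the outer membrane named here after its values were seen (0.33 ± 0.10, adjusted p = 0.0953), and BIRC2, an inhibitor of apoptosis (0.67 ± 0.26, adjusted p = 0.144). APAF1, the scaffold that cytochrome c activates, differed by 0.51 ± 0.26 (adjusted p = 0.233) and had an unadjusted p above 0.05. Of 11 genes of the death receptor route to BID, 3 were measured and 0 were called (median 0.27). Of these, 1 had an unadjusted p under 0.05 in limma, where 29.8% of all genes did. The adaptors FADD (0.39 ± 0.13, adjusted p = 0.110) and TRADD (0.27 ± 0.12, adjusted p = 0.187) led this list.

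Of 22 regulators of the family's abundance, 13 were measured. Their median was 0.39, against -0.03 for all genes and 0.20 for those outside the dimmest 40%. Over all resistant lines 1 of the 13 was called, against 3.72% of all genes. At an unadjusted p under 0.05 in limma, 8 of the 13 differed, against 29.8% of all genes. The list was chosen with earlier results of these data known. The called gene was TP73, a transcription factor that can induce BBC3, PMAIP1 and BAX, higher by 1.23 ± 0.22 (adjusted p = 0.0411 in limma). TP73 was 5.81 and 5.69 in the naive sets and 6.58 to 7.47 in the 6 resistant lines. All 6 lines lay above both naive sets, as they did for 17.0% of all genes. TRIB3, a pseudokinase of the stress response, differed by -0.76 ± 0.40 (adjusted p = 0.235), at 9.06 in high imatinib line 1 and 7.04 to 8.14 in the other 5 lines, against 8.75 and 8.39 in the naive sets. Of 21 target genes of the DNA damage response, 10 were measured (median 0.15). Among these 10, 1 was called, against the same 3.72% of all genes, and 3 had an unadjusted p under 0.05 in limma. The called gene was SESN1, a sestrin that restrains mTORC1, higher by 1.16 ± 0.22 (adjusted p = 0.0459). SESN1 was 6.56 and 6.51 in the naive sets and 7.08 to 8.18 in the resistant lines. RRM2B, a ribonucleotide reductase subunit, differed by 0.62 ± 0.23 (adjusted p = 0.138). With the technical pattern taken out TP73 was 0.93 higher (adjusted p = 0.173) and SESN1 0.71 higher (adjusted p = 0.253), and neither was then called. Neither list had a called gene in a comparison of a single resistance with naive cells, where the background is given above.

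**Figure D5:**
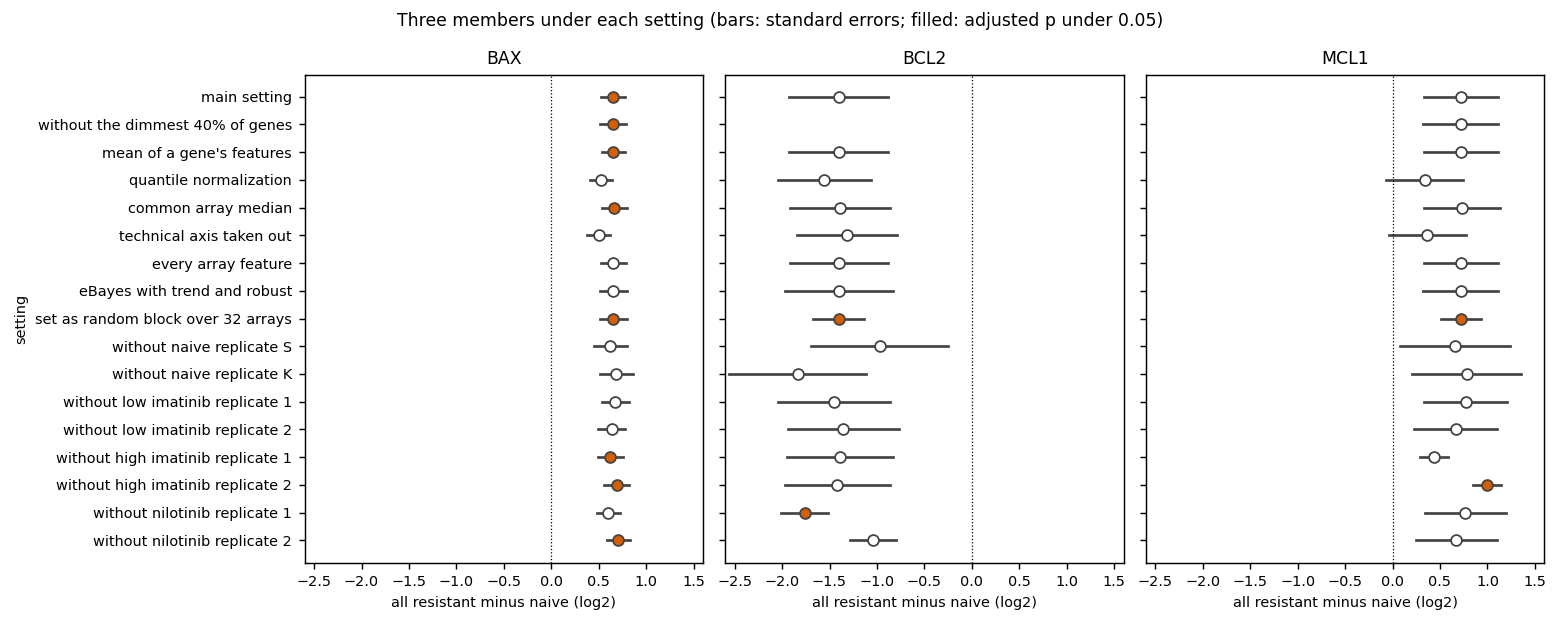
Difference of all resistant lines from naive (log2, horizontal axis) for BAX, BCL2 and MCL1 under each setting of the analysis (rows); bars are standard errors and a filled point has an adjusted p under 0.05. The direction is the same in every row shown, between 0.50 and 0.71 for BAX, while the call changes from row to row.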

How the data were processed

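Gene expression was measured on 32 arrays in 8 sets of 4. The deposited values are log2-like summarised intensities, 1 per array feature. Transcriptome Analysis Console 4.0 is the tool per the submitters' processing notes. The log base and normalisation are not given in the sources used here. The log base was inferred from the range, and array medians lay between 5.85 and 6.11. Precision is limited by the number of sets, 2 per group.

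Of 53617 features, 16098 carried 1 gene symbol, 0 carried several and 37519 were unnamed here. All 16098 matched GRCh38.p14 RefSeq genes by gene ID. The feature with the highest mean represented each of 779 genes with several, leaving 14884 genes.

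Arrays of a set were averaged. Group means were fitted to these 8 values per gene with limma 3.58.1 under R 4.3.3 (4 residual degrees of freedom), for 7 comparisons. Comparisons of sets within a group used the 32 arrays (24 residual degrees of freedom). Benjamini-Hochberg adjustment ran over all genes of a comparison. The labels do not say that naive S and K are separate cultures, so p-values measure only the spread between these sets. The script was tested on simulated data.

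The members and gene lists were chosen with earlier results of these data known. Named genes are the 10 members and, from each list, those called and the 2 with the largest difference over all resistant lines. Alternatives were the dim-gene filter, mean of features, every feature, quantile normalisation, a common median and removal of the technical pattern. Others were a trended robust fit, sets as a random block, and only the groups compared. Further fits left out each set, or the same-numbered array of every set. A fit without a set keeps only the other set of its group, so the gap between them no longer counts as spread.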

Additional observations from a re-analysis of the deposited data

Results flagged for a closer look

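Of 90 groups of values checked (the 6 resistant line means and the 4 arrays of each set, for each member), 7 had a highest or lowest value far from the rest, judged by its gap to the nearest value as a share of the whole range. Chance alone flags about 1 in 20 such groups. Among the resistant lines, nilotinib line 1 stood above the others for BCL2 (0.737 of the range) and below them for BIK (0.637), and high imatinib line 1 stood above the others for MCL1 (0.784). Among arrays, the gap was 0.836 for MCL1 (array 1 of low imatinib line 2, lowest), 0.896 for BCL2L11 (array 2 of naive S, highest), 0.887 for BBC3 (array 3 of nilotinib line 1, lowest) and 0.874 for BID (array 4 of low imatinib line 2, highest). The cause of these gaps was not tested.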

How the results depend on the processing

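The count of called members for all resistant lines was 1 (BAX). It was 0 with quantile normalisation, with the technical pattern taken out, with every array feature and with the trended robust fit, 3 with sets as a random block (BAX, BCL2 and MCL1), and 0 to 2 leaving out a set. With sets as a random block the count rose from 0 to 3 in low imatinib, 4 in high imatinib, 2 in nilotinib, and 1 in each comparison between resistances. That fit lets arrays of a set share a correlation of 0.435 and has more degrees of freedom. Low imatinib gave 2 (BAX and BCL2) with only the compared groups in the fit. Leaving out a set gave 0 to 1 in high imatinib (MCL1 without high imatinib line 2), in nilotinib (BAX without either high imatinib line) and in high against low imatinib (MCL1 without high imatinib line 2). Within low imatinib the count of 1 became 2 without the dimmest 40% of genes, with quantile normalisation or with a common median, 3 with the technical pattern taken out, and 1 to 2 leaving out an array. Within naive it was 1 to 4 leaving out an array.

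No called value changed sign. Over all genes, the 553 calls for all resistant lines became 12 with the technical pattern taken out, 362 with quantile normalisation, 16 with every array feature, 268 with the trended robust fit, 3660 with sets as a random block, and between 0 and 1742 leaving out a set. Without the dimmest 40% of genes, 8 members were tested, since BCL2 and BIK fell out. Of the values recomputed for members and called list genes, 440 kept their direction and side of the threshold or were uncalled in both, 49 lost the call and 19 gained it; the cause was not tested. Fitting only the compared groups is the same fit for all resistant lines, so it gave no separate value.

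Deviations of same-numbered lines from their group means correlated at 0.139 (low and high imatinib), 0.188 (low imatinib and nilotinib) and -0.201 (high imatinib and nilotinib). These values differ in sign and have no reference value, so they cannot say whether lines of the same number are paired. With the line number as a replicate block in the 6 resistant lines, 0 members were called in each comparison between resistances, as without it. No such fit was possible against naive cells, whose sets carry letters.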
